A study of Rattus norvegicus with 4 samples.

Results

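miR-101a and miR-101b are the paralogous rat microRNAs (miRNAs) of the miR-101 family, measured here in exosomes, vesicles of endosomal origin that cells shed. Both were found by name: every read sequence assigned to the hairpin rno-mir-101a or rno-mir-101b was taken, which gave 2 of the 262 named hairpins with counts. Each distinct read sequence (tag) and its count were used, 29 of 1665 tags in exosomes of adipose stem cells (Exo-ADSCs, of which replicate 2 has tag counts), and in exosomes of adipose tissue (Exo-AT) 25 of 610 in replicate 1 and 61 of 2256 in replicate 2. The pair was selected on its own levels, 5′ starts and read lengths in these libraries, which had been looked at before, so the differences given here are descriptions and carry no test.

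All libraries came from Sprague-Dawley rats, and the labels name no genotype or added agent for either group. Exo-AT were shed by minced adipose explants of animals aged 4 weeks, stirred at 100 rpm for 3 days in 75 mL of medium, so vesicles of every cell type of the tissue are pooled in them. Exo-ADSCs were shed over 3 days into serum-free medium by adipose stem cells at passage 3, a cultured population. The labels do not tie the 2 libraries of a group to separate animals or cultures, so the spread between them may be technical.

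A miRNA is cut from a hairpin precursor as a duplex, from which usually 1 strand is kept and loaded onto an Argonaute protein. Its seed, bases 2 to 8 from the 5′ end, pairs with messenger RNAs and mainly sets which of them are repressed, so a shift of the 5′ end by a single base changes the seed. miR-101 is conserved across vertebrates and is best known for repressing Ezh2, the histone H3 lysine 27 methyltransferase of the Polycomb repressive complex, and loss of miR-101 has been described in several cancers.

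The hairpins are shown because they fix what a read can tell about its origin. Both are identical in the deposited files and in RefSeq (GRCr8), and capitals mark the mature 3p strand. The miR-101a hairpin (gene Mir101a) lies on the minus strand at chr5:121081683-121081757, within the long non-coding RNA gene LOC120102934 and next to Jak1, a cytokine receptor kinase gene. The miR-101b hairpin (gene Mir101-2) lies on the plus strand at chr1:236273922-236274018, within the protein-coding gene Rcl1, a ribosome biogenesis factor gene, with Ak3 and Jak2 as neighbouring protein-coding genes. Whether either hairpin is exonic or intronic was not analysed here.
miR-101a hairpin: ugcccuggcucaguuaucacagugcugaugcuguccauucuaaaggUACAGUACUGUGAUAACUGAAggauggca
miR-101b hairpin: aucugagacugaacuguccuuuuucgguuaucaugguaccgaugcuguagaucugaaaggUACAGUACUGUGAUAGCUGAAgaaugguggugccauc

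The mature strands follow, with the seed in capitals, together with miR-144-3p, the only other rat mature miRNA in RefSeq whose bases 2 to 7 equal those of miR-101. The mature 3p strands of miR-101a and miR-101b differ by A16G alone, counted from 1 at the 5′ end with the base of miR-101a first, and they share the seed, which no other of the 724 RefSeq entries has. The 5p strands differ from each other within the seed.
miR-101a-3p: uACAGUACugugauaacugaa
miR-101b-3p: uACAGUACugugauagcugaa
miR-101a-5p: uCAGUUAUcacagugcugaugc
miR-101b-5p: uCGGUUAUcaugguaccgaugc
miR-144-3p: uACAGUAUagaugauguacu

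The libraries differed in depth and in RNA length. Counts assigned to any hairpin were 715114 for Exo-ADSCs, 15200 for the first Exo-AT replicate and 181049 for the second, of which 13.6%, 60.1% and 75.1% lay on named miRNAs. Reads of 21 to 23 nt made up 24.8%, 71.5% and 75.8% of the named counts. Inside the tag files, 1 sample name stands for both Exo-AT replicates, and all 610 named tags of replicate 1 were also in replicate 2 with at least as many reads there (for miR-101, 25 of 25). In the other pairs of libraries such sharing was partial: 276 of the 610 tags of Exo-AT replicate 1 were in Exo-ADSCs replicate 2. The miRNA counts of the 2 files were not in 1 proportion (chi-square 1494 over 79 miRNAs), and they were not treated as 1 library. That value covers counting error of independent reads only. A second file made of the first plus other reads could differ in this way too, so the value cannot decide whether the files overlap. Whether the second file includes the reads of the first was not tested, so each library is given on its own and the shares are repeated on replicate 2 minus replicate 1.

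All listed miR-101 reads came from the 3p arm. miR-101a-3p had 203 counts in Exo-ADSCs, then 186 and 2006 in the first and second Exo-AT replicate. miR-101b-3p had 184, 24 and 338 counts in the same libraries. Both 5p strands had 0 counts in every library. By counting error alone this allows up to 3 counts, or 1.48%, 1.61% and 0.150% of the miR-101a hairpin's counts. For miR-101b the values are 1.63%, 12.5% and 0.888%. That for miR-101b in Exo-AT replicate 1 is loose because it rests on 24 counts. Sequences with fewer than 2 reads are left out of the deposited counts. These values are therefore no upper bound on 5p reads of that kind. By rank among the miRNAs with counts, miR-101a-3p was number 24 of 264 in Exo-ADSCs, 9 of 140 in Exo-AT replicate 1 and 10 of 244 in replicate 2. miR-101b-3p was number 30, 36 and 34.

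The relative level of miR-101a-3p was higher in both Exo-AT libraries than in Exo-ADSCs under all 3 scalings, and for miR-101b-3p the side changed with the scaling. On TMM-scaled CPM (counts scaled to a common library total), which correct for libraries dominated by a few miRNAs, miR-101a-3p was at 3164 in Exo-ADSCs and at 14702 and 13645 in the Exo-AT libraries. The Exo-AT values are 4.65 and 4.31 times the Exo-ADSCs value, and they lie close to each other. miR-101b-3p was at 2867 TMM-scaled CPM in Exo-ADSCs and at 1897 and 2299 in Exo-AT, 0.662 and 0.802 times the Exo-ADSCs value. In Exo-ADSCs the paralogs, both of 21 bases, were thus at nearly 1 level, whereas in Exo-AT miR-101a stood well above miR-101b.

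**Figure D1:**
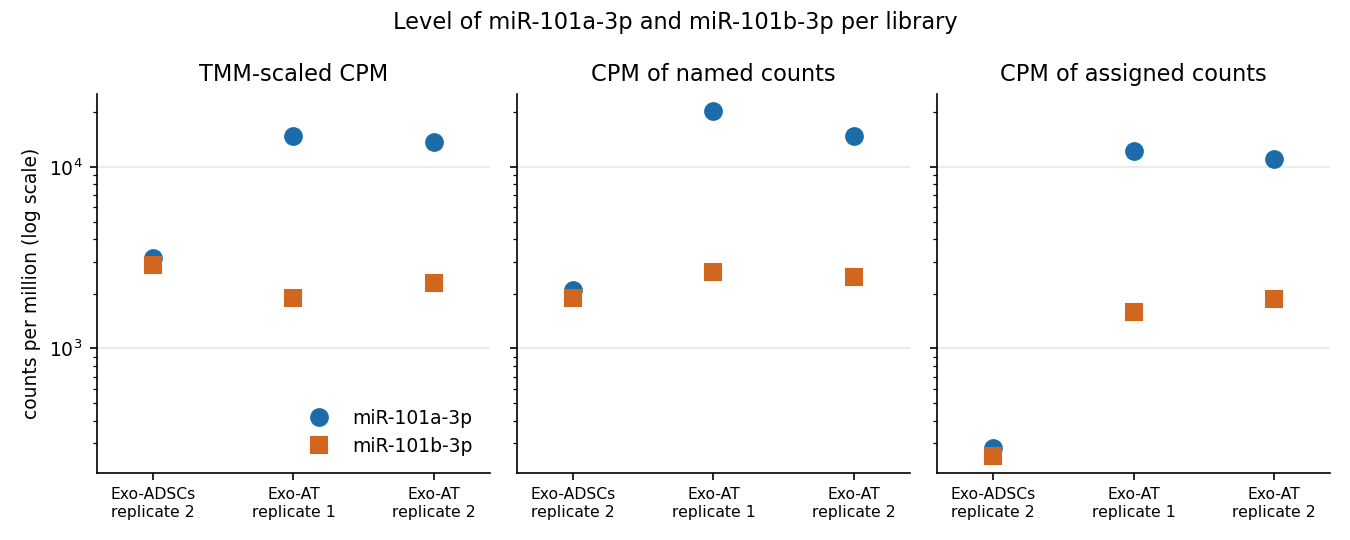
Level of miR-101a-3p (circles) and miR-101b-3p (squares) in each library, in CPM on a log axis, scaled by TMM (left), by named miRNA counts (middle) and by all counts assigned to hairpins (right). The paralogs overlap in Exo-ADSCs under all 3 scalings and separate in both Exo-AT libraries, while the Exo-AT to Exo-ADSCs ratio of miR-101b-3p changes side with the scaling.

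Fitted over all 183 miRNAs that passed the count filter, the log2 fold change (Exo-AT over Exo-ADSCs) of miR-101a-3p was 2.16 (SE 0.35) and that of miR-101b-3p was -0.43 (SE 0.43). The median of all 183 was 0.37, and the members ranked 55 and 119 from the highest. The direction for miR-101b-3p depended on the scaling, at 1.39 and 1.31 times Exo-ADSCs when scaled by named counts and at 6.14 and 7.26 times when scaled by all assigned counts. miR-101a-3p was higher in Exo-AT under each of these, at 9.75 and 7.06 times by named counts and at 43.1 and 39.0 times by assigned counts. Copies per vesicle and the number of vesicles that carry a miRNA cannot be told apart in these pooled RNAs.

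How the family's reads divide between its paralogs does not depend on scaling. miR-101b took 47.5% of the miR-101 counts in Exo-ADSCs (Wilson 95% interval 42.6 to 52.5). It took 11.4% in Exo-AT replicate 1 (7.80 to 16.4) and 14.4% in replicate 2 (13.1 to 15.9). The Exo-AT intervals overlap each other and lie far below that of Exo-ADSCs, and in replicate 2 minus replicate 1 the share was 14.7%. Put as a ratio, there were 1.10 counts of miR-101a for each of miR-101b in Exo-ADSCs, and 7.75 and 5.93 in Exo-AT. Intervals cover counting error only, and with 1 Exo-ADSCs library the spread between libraries of that group is not known from tag counts.

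Because A16G is the single difference of the mature strands, the share was also read directly from the letters. Every miR-101 tag covered that position and held A or G there, and every tag aligned to 1 hairpin held the base of that hairpin. The hairpin of a tag is set mainly by this same base, so the match was largely fixed in advance. It is no independent check of the share. By this base the share of miR-101b was 47.3%, 10.5% and 14.2% in the order Exo-ADSCs, Exo-AT replicate 1 and replicate 2, within 1 point of the share by hairpin. The small gap came from a single tag that aligned to both hairpins, with 2, 3 and 10 reads.
tag on both hairpins: tACAGTACtgtgataactgaaga

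Of 11 a and b paralog pairs with a shared seed and at least 20 counts in every library, the b member took a lower share in both Exo-AT libraries than in Exo-ADSCs in 5, a higher share in 4 and neither in 2. The seed was shared by the RefSeq sequences in 8 of them, and by the leading reads in the other 3 (miR-10, miR-30 and miR-99). miR-26a-5p and miR-26b-5p, also described as repressors of Ezh2, divided much like miR-101, with 47.0% on miR-26b-5p in Exo-ADSCs and 13.5% and 15.1% in Exo-AT. For miR-181 the b share was 18.5% in Exo-ADSCs and 7.32% and 5.24% in Exo-AT. For miR-27 it went the other way, from 22.1% to 64.3% and 51.3%. The miR-101 share lay 34.6 points lower in the Exo-AT mean than in Exo-ADSCs. The fall was larger for miR-99, from 99.5% on miR-99b-5p in Exo-ADSCs to 35.6% and 36.4% in Exo-AT, so a shift of this size was not peculiar to miR-101. The miR-99b-5p reads of Exo-ADSCs were short, however, with a mean of 17.6 nt and 2.24% at 21 to 23 nt. For miR-101a-3p 73.9% were of 21 to 23 nt there.

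**Figure D2:**
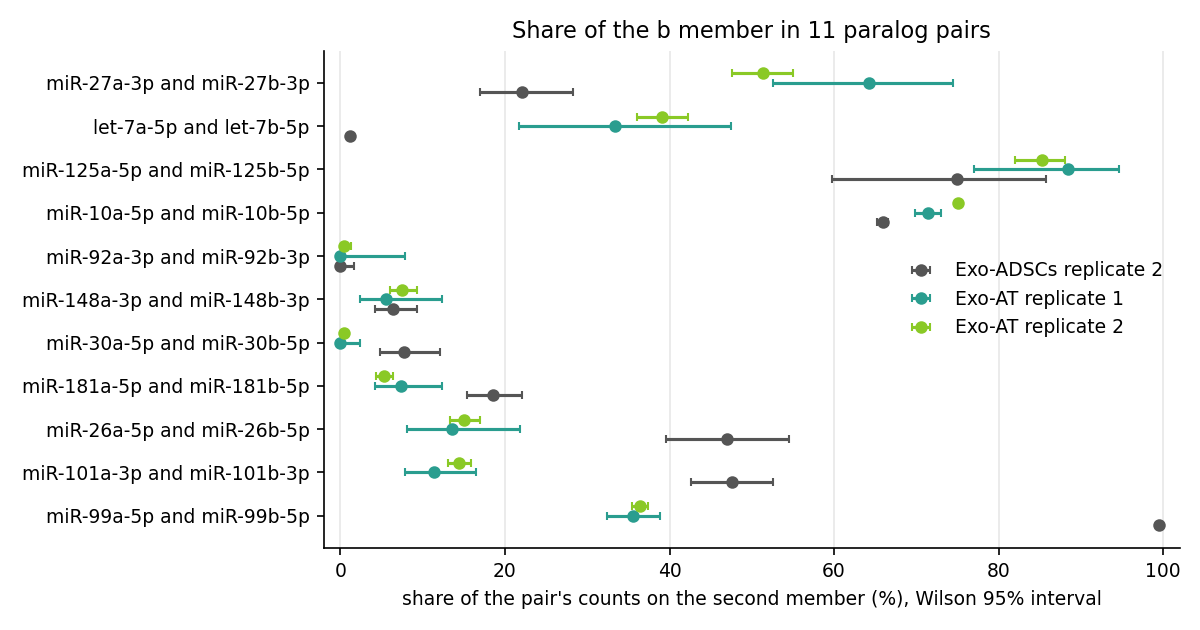
Share of a pair's counts on its b member (x axis, %) in 11 paralog pairs, with points for the 3 libraries and bars for Wilson 95% intervals. miR-101 and miR-26 take 47.5% and 47.0% in Exo-ADSCs and between 11.4% and 15.1% in both Exo-AT libraries, miR-99 (the lowest row) falls further, and miR-27 and let-7 (the highest rows) move to the right.

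The 5′ end of miR-101a also differed between the Exo-ADSCs library and the Exo-AT libraries. Reads that start at the annotated base made up 88.7% of miR-101a-3p counts in Exo-ADSCs, and 60.8% and 62.9% in Exo-AT. Reads that start 1 base earlier made up 9.85% in Exo-ADSCs (6.47 to 14.7), against 33.3% (27.0 to 40.4) and 29.5% (27.5 to 31.5) in the Exo-AT replicates. The early form was therefore about as frequent in one Exo-AT library as in the other. Its intervals there do not reach that of Exo-ADSCs, but they cover counting error only. In replicate 2 minus replicate 1 it was 29.1%. Reads that start 1 base late had 0 counts in Exo-ADSCs and made up 5.91% and 6.03% in Exo-AT.

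For miR-101b the 5′ difference was smaller and its intervals overlapped. Reads starting 1 base early made up 19.6% of miR-101b-3p counts in Exo-ADSCs (14.5 to 25.9), against 29.2% (14.9 to 49.2) and 23.7% (19.4 to 28.5) in the Exo-AT replicates. These intervals cover counting error only, and with 1 Exo-ADSCs library they cannot decide whether the sources differ in this form. Without mismatched tags the shares were 21.2% in Exo-ADSCs and 31.8% and 16.5% in Exo-AT, on both sides of Exo-ADSCs. Reads starting 1 base late made up 1.63% in Exo-ADSCs and 12.5% and 10.9% in Exo-AT, the same side as for miR-101a.

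**Figure D3:**
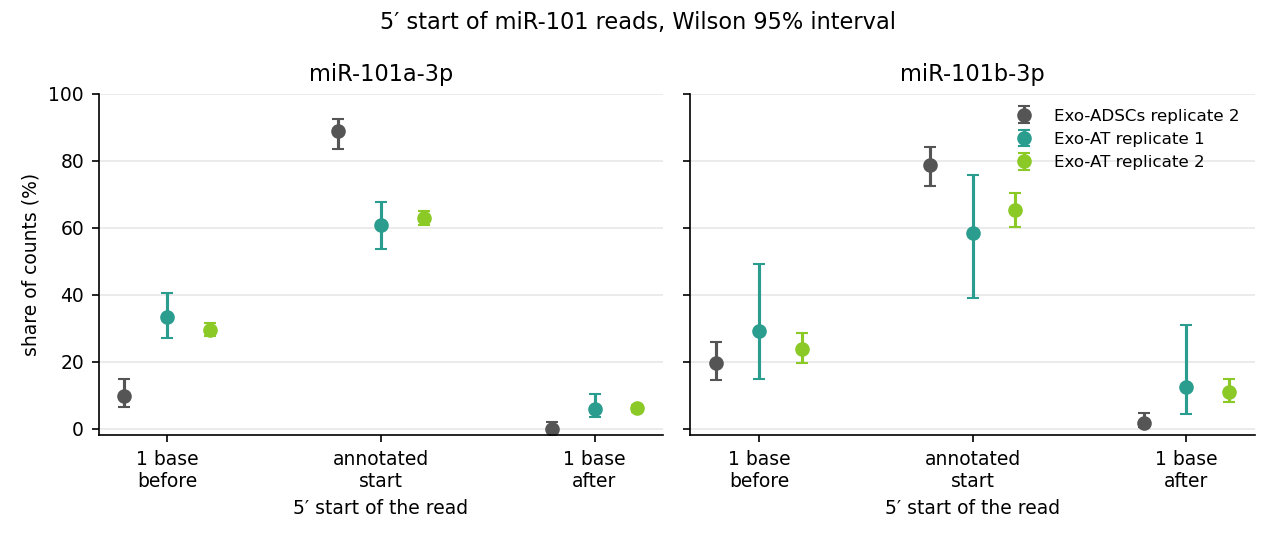
Share of counts (y axis, %) of miR-101a-3p (left) and miR-101b-3p (right) by the 5′ start of the read, with points for the 3 libraries and bars for Wilson 95% intervals. For miR-101a-3p the early start lies at 33.3% and 29.5% in Exo-AT against 9.85% in Exo-ADSCs, and for miR-101b-3p the intervals of the early start overlap.

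These starts are printed because each puts other bases at positions 2 to 8, in capitals (reads are written with T). The read that starts at the annotated base has the miR-101 seed, ACAGUAC. The early read has UACAGUA and the late read CAGUACU, neither of which is the seed of any rat mature miRNA in RefSeq.
miR-101a-3p annotated start: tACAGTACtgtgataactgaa
miR-101a-3p 1 base early: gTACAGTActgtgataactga
miR-101b-3p 1 base late: aCAGTACTgtgatagctgaa

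The annotated miR-101a-3p read had 48 counts in Exo-ADSCs and 45 and 475 in Exo-AT, a steady 23.6%, 24.2% and 23.7% of the member's counts. The early read printed above had 9, 31 and 295 counts, or 4.43%, 16.7% and 14.7%, which made it the second most frequent miR-101a form in both Exo-AT libraries. The late miR-101b-3p read had 0, 3 and 24 counts.

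In Exo-AT the early start of miR-101a-3p went most often with an early end. Of the 591 miR-101a-3p counts that started 1 base early in Exo-AT replicate 2, 53.0% also ended 1 base early, and of the 62 in replicate 1, 53.2% did. Among counts with the annotated start these shares were 15.8% and 13.3%, and their largest class ended at the annotated base (40.1% and 41.6%). The intervals of the early-start shares were 48.9 to 57.0 in replicate 2 and 41.0 to 65.1 in replicate 1. In Exo-AT the largest class of early reads thus had a 5′ and a 3′ end shifted together, at the annotated length of 21 nt. Over all early reads the mean length was 21.4 nt in both replicates, against 21.2 nt with the annotated start. Exo-ADSCs had 20 early counts, of which 45.0% ended 1 base early (25.8 to 65.8).

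Of the 12 miRNAs that reached 100 counts in each library, miR-101a-3p had the lowest share on its most frequent start in both Exo-AT libraries, where the medians were 88.6% and 86.3%. In Exo-ADSCs, with a median of 89.2%, it ranked 8 of 12 from the highest. In Exo-ADSCs the lowest was miR-486-5p, an erythroid miRNA, at 53.2%.

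The length of miR-101 reads hardly differed, unlike that of the libraries. The mean length of miR-101a-3p was 21.2 nt in all 3 libraries, and that of miR-101b-3p was 21.4 nt in Exo-ADSCs and 21.5 nt in both Exo-AT libraries. Reads of 21 to 23 nt made up 73.9% of miR-101a-3p counts in Exo-ADSCs, against 24.8% of all named counts there, and 81.2% and 80.9% in Exo-AT. In Exo-ADSCs, miR-101a-3p thus ranked 2 of the 12 abundant miRNAs in this share, whose median was 21.1%.

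The 3′ ends of the paralogs differed. For miR-101a-3p the counts spread over the bases around the annotated end. In Exo-ADSCs 28.1%, 33.5% and 34.0% ended 1 base before, at and 1 base after it, and in Exo-AT replicate 2 26.9%, 32.9% and 31.7%. These ends include added bases that the hairpin does not hold, which are counted again below. Of the 69 Exo-ADSCs counts ending 1 base after, 34 ended in such a U, 11 in such an A and 24 matched the hairpin. In Exo-AT replicate 2 the leading reads of this class had 239 counts with the U and 187 matching the hairpin. The paralog difference in ends thus mixes matching and added bases. For miR-101b-3p, an end 1 base after the annotated one led in Exo-ADSCs (49.5%) and in Exo-AT replicate 2 (42.6%), whereas it held 12.5% of the 24 counts in Exo-AT replicate 1. The leading miR-101b read, 1 base longer than the mature form and matching the hairpin, had 70 counts in Exo-ADSCs and 3 and 107 in Exo-AT.
miR-101b-3p with 1 base more: tACAGTACtgtgatagctgaag

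**Figure D4:**
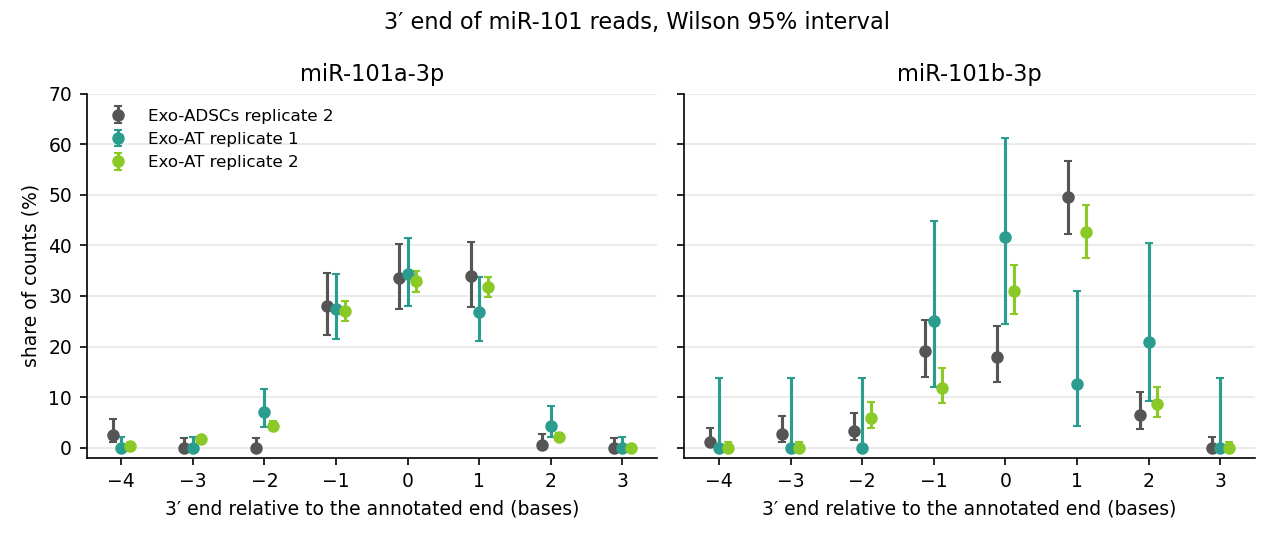
Share of counts (y axis, %) of miR-101a-3p (left) and miR-101b-3p (right) by the 3′ end relative to the annotated end (x axis, bases), with points for the 3 libraries and bars for Wilson 95% intervals. Ends include added bases that the hairpin does not hold. miR-101a-3p spreads mainly over 3 positions in each library, and miR-101b-3p leads at 1 base after the end in Exo-ADSCs and Exo-AT replicate 2.

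A U that the hairpin does not hold was frequent at the 3′ end of miR-101a. Such reads, which can arise when terminal uridylyl transferases add a U, made up 16.7% of miR-101a-3p counts in Exo-ADSCs and 14.5% and 19.1% in Exo-AT. The shares lie close together, and they ranked 2 of the 12 abundant miRNAs in each library, behind miR-143-3p. The medians of those 12 were 0.12%, 0.19% and 0.97%. For miR-101b-3p the share was 9.78% in Exo-ADSCs and 7.99% in Exo-AT replicate 2, with 0 of 24 counts in replicate 1. The leading read of this kind had 34 counts in Exo-ADSCs and 15 and 239 in Exo-AT.
miR-101a-3p with a 3′ U: tACAGTACtgtgataactgaat

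The authors' deposited table, which lists 45 miRNAs that they found raised in Exo-AT, includes miR-101a-3p and does not list miR-101b. In the authors' deposited table, its normalized reads were 10914 and 2807 in the columns for Exo-AT replicates 1 and 2, and 256 and 280 in those for Exo-ADSCs replicates 1 and 2. Both Exo-AT values exceed both Exo-ADSCs values. The listed miRNAs were chosen by the authors as raised in Exo-AT, so this direction was set by the choice and is no further evidence. The Exo-ADSCs values of miR-101a-3p differ little, although only the second has a tag file used here. That closeness did not hold for the columns in general. They were near each other for miR-148a-3p (398 and 474) and far apart for miR-30a-5p (522 and 20) and miR-99a-5p (23 and 768). The log2 ratio of the group means of the authors' deposited table values was 4.63 with a pseudocount of 10, which ranked 6 of 45. With 2 against 2 libraries the smallest two-sided p of an exact permutation test is 0.333.

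The Exo-AT columns of the authors' deposited table did not follow the files labelled alike, whereas the column for Exo-ADSCs replicate 2 followed its own file. The column for Exo-AT replicate 1 in the authors' deposited table was 5.44 times the miR-101a-3p counts of the replicate 2 file, and 35 of 43 miRNAs lay within 5% of the same factor. The column for replicate 2 was 62.4 times the reads of the single most abundant miR-101a tag in the replicate 1 file, and 23 of 43 miRNAs of the authors' deposited table lay within 5% of the median factor of 62.2. For Exo-ADSCs replicate 2 the column was 1.38 times the miR-101a-3p counts of all tags in its own file, with 25 of 39 miRNAs of the authors' deposited table within 5% of the same factor. The Exo-AT columns of the authors' deposited table were therefore not set against the tag files by replicate number, and the log2 ratio of 4.63 is not on the scale of the fitted 2.16.

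Of the 8 miRNAs listed as described repressors of Ezh2 besides miR-101, 7 were tested: 1 was higher in Exo-AT, 2 were lower and 4 were not called (edgeR quasi-likelihood, Benjamini-Hochberg adjusted). Over all 183 miRNAs tested, 38.3% were called, 19.1% higher and 19.1% lower. These calls rest on 1 Exo-ADSCs library and on 2 Exo-AT files that share read sequences. They cannot be taken to measure spread between animals or cultures. miR-26a-5p rose, with 88 counts in Exo-ADSCs and 83 and 1297 in Exo-AT (log2 fold change 2.50, SE 0.39). let-7a-5p fell, with 10943, 32 and 583 counts (log2 fold change -5.67), and miR-214-3p fell, with 100, 1 and 14 counts (-4.06). All 3 kept their direction when scaled by named or by assigned counts, but miR-214-3p was then not called by assigned counts (log2 fold change -0.89, edgeR adjusted p 0.481), and with predicted hairpins included none was called. By assigned counts let-7b-5p, let-7c-5p and miR-26b-5p were also higher in Exo-AT (log2 fold changes 3.18, 2.59 and 3.33). These values lay below the median of 3.55 over all miRNAs tested on that scale. Reads of let-7a-5p are shared with near-identical let-7 copies, so its size is uncertain (-10.16 with tags on 1 hairpin only). The list's median log2 fold change was -0.01 beside 0.37 over all miRNAs tested. miR-144-3p, which shares bases 2 to 7 with miR-101, had 4, 0 and 2 counts and was not tested.

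The miRNAs whose TMM-scaled profile over the 3 libraries lay nearest to that of miR-101a-3p, of 48 compared, were miR-25-3p, miR-425-5p, miR-127-3p, miR-30a-5p and miR-27b-3p. Their Euclidean distances on centred log2 CPM were 0.068, 0.15, 0.22, 0.27 and 0.35, beside a median of 1.99. miR-25-3p had 142 counts in Exo-ADSCs and 129 and 1479 in Exo-AT. By the same measure miR-101a-3p ranked only 34 of 48 in likeness to its own paralog miR-101b-3p (distance 2.16).

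Markers of other cells also differed between the libraries, and their part in the miR-101 values was not tested. The endothelial miR-126a strands, 2 of 2 with counts in every library, summed to 329 CPM of named counts in Exo-ADSCs and to 3832 and 5102 in Exo-AT. The erythroid list of 4 summed to 33527 CPM in Exo-ADSCs and to 51018 and 166978 in Exo-AT, nearly all of it miR-486-5p, with miR-144-5p at 0 in all 3 libraries. Of the leukocyte list, miR-223-3p was at 0 in Exo-ADSCs and Exo-AT replicate 1 and had 7 counts in replicate 2, and the list of 4 summed to 154, 438 and 904 CPM. The 4 muscle miRNAs summed to 175, 1971 and 1470 CPM with miR-133b-3p at 0 throughout, of which miR-1b-3p made up 30.9, 1971 and 1301 CPM while miR-206-3p was at 123, 0 and 14.7 CPM. The 4 epithelial ones summed to 298, 1423 and 816 CPM, and the 2 neural ones to 103, 4598 and 640 CPM. The liver miRNA miR-122-5p was at 226, 657 and 463 CPM, and its log2 fold change by named counts equalled the median of 1.21. In the TMM fit the median of all miRNAs tested was 0.37. The list medians there, over at most 3 tested miRNAs each, were 2.61 (endothelial), 0.46 (erythroid), 3.82 (leukocyte) and 3.24 (muscle). They were 0.96 (epithelial), 5.10 (neural) and 0.37 (liver). Some of them rested on 1 member. The leukocyte median lies between miR-142-5p at -0.12 and miR-150-5p at 7.76, the latter from 0, 2 and 69 counts. The muscle median lies between miR-1b-3p at 4.74 and miR-133a-3p at 1.74 (SE 2.59). The neural value is miR-9a-5p alone, with 3, 39 and 84 counts, while miR-124-3p (7, 3 and 3 counts) was not tested. The 2 endothelial strands were at 3.40 and 1.83. The 5 stromal miRNAs summed to 160024 CPM in Exo-ADSCs and to 199146 and 133873 in Exo-AT by named counts, nearly all of it miR-143-3p, and by assigned counts to 21752 against 119671 and 100581. The median log2 fold change of these 5 was -0.87 in the TMM fit, beside 0.37 over all miRNAs tested. By assigned counts that of miR-143-3p was 2.33, where the median over all miRNAs tested was 3.55. All 3 miRNAs listed as enriched in adipocytes were lower in Exo-AT in the TMM fit (log2 fold changes -2.35, -2.18 and -1.59). By assigned counts they were higher there (0.83, 1.00 and 1.60), in sum 791 against 1974 and 2088 CPM, yet below the median of 3.55. By named counts they were lower (-1.52, -1.39 and -0.74), in sum 5823 CPM against 3284 and 2779. Scaled by named counts none of the 3 was called. The tissue label could thus not be checked by this list independently of the scaling.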

How the data were processed

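Per the labels' protocols, ligated small RNA with inserts of 15 to 35 nt was sequenced over 36 cycles. Novoalign 2.07.11 and rn6 appear in the submitters' processing notes; for trimming and the miRNA release, the version is not given in the sources used here. Per the file headers, the deposited tag files give whole-number counts per read sequence and hairpin, with tag length in nt (a unit of its own, other). Tags have at least 2 reads, and reads on several hairpins were divided between them. Tag files of 3 of the 4 libraries were used; that of the first Exo-ADSCs replicate is a class summary and was not used. Normalized reads in the authors' deposited table are treated as a score, since their factor is not stated.

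Tags were given to the 5p or 3p arm by their midpoint, after correcting an offset of 5 bases in the files' positions, and summed to 348 mature forms. Starts, ends and mismatches were taken from the tag and the hairpin. CPM use named counts (97204, 9134 and 136024 in Exo-ADSCs replicate 2, Exo-AT replicate 1 and replicate 2) unless stated. By counting error a count of 0 allows 3 counts, or 30.9, 328 and 22.1 CPM. This does not cover tags with fewer than 2 reads, which are not listed. Intervals of shares are Wilson 95% intervals. Without molecular identifiers on the reads, these and the floors reflect counting error alone.

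edgeR 4.0.16 (R 4.3.3; quasi-likelihood, two-sided, TMM, default filter at 10 counts and a total of 15) was fitted over 183 miRNAs, with p-values adjusted by Benjamini-Hochberg and called at 0.05. Exo-ADSCs is 1 library there and is assumed to vary like the Exo-AT libraries; dispersion rests on 2 files that share read sequences. The script was tested on simulated data. The alternatives were other scalings, DESeq2 1.42.0, no filter, leaving out a library and other choices of tags. Named forms were the members, their isoforms with at least 5% of counts, seed relatives, the Ezh2 list, 5 nearest profiles (at least 10 counts in every library) and paralog pairs; of the isoforms, those the results turn on are printed. Members and lists were chosen with earlier results of these data known. Mature and hairpin sequences are from RefSeq (GRCr8; 4 of 4 member strands and both hairpins matched), tags from the deposited files.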

Additional observations from a re-analysis of the deposited data

How the results depend on the processing

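Shares were repeated with tags of 20 to 25 nt, tags on 1 hairpin and tags without mismatches. They were the paralog share, the 3p share of each member and the shares of early starts (each member apart, chosen after seeing the data, and both together). The Exo-AT means moved by no more than 1 standard deviation of the 2 Exo-AT values, and the Exo-ADSCs shares stayed within their counting interval. Without mismatches, the Exo-AT mean of early miR-101a-3p starts (34.1%) lay above both library values (33.3% and 29.5%). So did that of the paralog share (14.9%, against 11.4% and 14.4%). The log2 fold change of miR-101a-3p (2.16) stayed positive, at 1.91 with DESeq2 size factors and with DESeq2 itself, 3.06 scaled by named counts, 1.27 with tags of 20 to 25 nt, 2.30 with tags on 1 hairpin, 2.29 without mismatches and 5.36 scaled by assigned counts (chosen after seeing the data), and at 2.11 to 2.37 without one Exo-AT library. That of miR-101b-3p (-0.43) was -0.72 with DESeq2 size factors and with DESeq2, -1.29 with tags of 20 to 25 nt and -0.32 to -0.44 without one Exo-AT library, and it reversed to 0.42 scaled by named counts and to 2.76 scaled by assigned counts. For both members these last values follow from the totals used. Of the 183 miRNAs, 70 were called, against 43 with DESeq2. With predicted hairpins included (chosen after seeing the data), 0 of 401 features were called by edgeR, and 25 had an unadjusted edgeR p under 0.05; the cause was not tested. The higher and lower calls, 35 and 35, were 46 and 19 when scaled by named counts, where the median log2 fold change was 1.21, and 109 and 5 when scaled by assigned counts. The mean length of miR-101a-3p was 21.3 nt in Exo-AT and in Exo-ADSCs with tags of 20 to 25 nt, and 20.9 and 20.8 nt without mismatches, as the selection of tags implies. The log2 ratio of means in the authors' deposited table (4.63) ranged from 3.34 to 5.30 when one library was left out. With the replicate number as a block, the mean of the log2 differences was 4.32, and the means of the log2 values differed by the same 4.32 without pairing, so the block did not move it; the deviations of same-numbered libraries correlated at 0.525 over the 45 miRNAs, but there are only 2 pairs and no label ties the numbers. No paired analysis was possible because tag counts were used for 1 Exo-ADSCs library only, as far as the counts are concerned. Depth limits miR-101b most: 24 counts in Exo-AT replicate 1.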

Other observations

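A few miR-101 reads started elsewhere. In Exo-AT replicate 2, 28 miR-101a-3p counts (1.40%) started 2 bases before the annotated base. The leading miR-101b-3p read with the early start, ending at the annotated base, had 4 counts in Exo-ADSCs and 3 and 39 in the Exo-AT replicates, and the same start with an end 1 base earlier had 17, 4 and 8 counts. For miR-101b-3p the early start thus went with an early end in Exo-ADSCs (47.2% of 36 counts) and with the annotated end in Exo-AT replicate 2 (67.5% of 80 counts), whose Wilson intervals are 32.0 to 63.0 and 56.6 to 76.8 for these separate classes. An A that the hairpin does not hold ended 5.91%, 7.53% and 5.28% of miR-101a-3p counts in Exo-ADSCs and the first and second Exo-AT replicate.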
